A study of Mus musculus with 768 samples.

Results

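The genes described here are 10 members of the Notch pathway, the receptors *Notch1*, *Notch2*, *Notch3* and *Notch4*, the ligands *Jag1* and *Dll1*, and the transcriptional targets *Hes1*, *Hey1*, *Hey2* and *Heyl*. They were taken by symbol from the 24490 endogenous genes of the tables and followed in every well with at least 10000 reads outside the ERCC spike-ins, which are synthetic RNAs added to each lysate. The cells came from mammary tumors of 2 mice of the strain FVB/N-Tg(MMTVPyVT)634Mul/J at 14 weeks of age, in which the polyoma middle T oncogene is driven in the mammary gland by the MMTV promoter. They had been sorted as EpCAM-, CD45-, CD31- and NG2- and read by Smart-seq2, a full-length single-cell RNA-seq method. The labels name no treatment, each tumor filled 1 plate of 384 wells, and the tumor is the replicate (n = 2), so that tumor and plate cannot be told apart.

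Of 768 wells, 41 fell under the minimum and 727 were kept, 373 of tumor 1 and 354 of tumor 2. A well was called vascular when *Rgs5*, a regulator of G protein signalling found in mural cells of vessels, had at least 100 RPKM (reads per kilobase of transcript, scaled to the reads of the well) and at least 4 times the RPKM of *Dcn*. It was called matrix in the reverse case, *Dcn* being decorin, a proteoglycan of the fibroblast matrix. This gave 262 and 240 vascular wells and 84 and 82 matrix wells in tumors 1 and 2, while 6 wells had both genes high and 53 had neither. Leaving aside *Rgs5* and *Dcn*, which set the classes, all 13 other vascular markers had a higher mean log2(RPKM + 1) in vascular wells of both tumors, and all 12 other matrix markers in matrix wells. A class drawn from these lists without the 2 genes was the same for 500 of 502 vascular and 157 of 166 matrix wells. The authors named many of the listed genes for their populations in these same cells, so this agreement is not an independent check. Median reads per well were 203068 and 191482 in vascular wells and 275379 and 232394 in matrix wells, and the ERCC spike-ins took a median of 14.3% and 12.3% of the reads of a vascular well against 6.33% and 6.23% of a matrix well.

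Notch receptors are single-pass proteins that are cut when a ligand on a neighbouring cell binds them, first by an ADAM sheddase and then by gamma-secretase. The freed intracellular part enters the nucleus, joins RBPJ and Mastermind proteins on DNA, and switches on repressors of the Hes and Hey families. In vessels, *Notch3* is the receptor known from pericytes and smooth muscle cells, and *Jag1* encodes one of the ligands through which endothelial and mural cells signal to each other.

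*Notch3* was the receptor that set the vascular wells apart. In vascular wells its RPKM ran from 0 through a median of 82.1 to 294 in tumor 1 and from 0 through 83.3 to 378 in tumor 2. In matrix wells it ran from 0 through 0.61 to 97.9 in tumor 1 and from 0 through 0.52 to 74.6 in tumor 2. The median vascular well lay below the highest matrix well in tumor 1 and above it in tumor 2, and the ranges of single wells overlapped. A *Notch3* read was found in 98.9% (exact binomial 95% interval 96.7 to 99.8) and 97.5% (94.6 to 99.1) of vascular wells against 60.7% (49.5 to 71.2) and 57.3% (45.9 to 68.2) of matrix wells. With each well thinned to 50000 reads, which removes differences in depth, the shares were 99.2% and 96.5% against 39.2% and 42.3%. Reads have no molecular identifiers in Smart-seq2, so these intervals cover counting error only.

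The reads of a class were then summed within each tumor, which gave 4 libraries, and tested by quasi-likelihood in edgeR, with p-values adjusted after Benjamini and Hochberg over the 11715 genes with a mean of at least 1 RPKM. *Notch3* had 728 and 760 CPM (normalised counts scaled to library size) in the vascular libraries of tumors 1 and 2 against 55.3 and 47.6 in the matrix libraries. The log2 fold change was 3.85 (SE 0.17, adjusted p = 0.00040, n = 2 tumors), and the libraries did not overlap. Of all genes tested, 6.45% were called higher and 9.53% lower in vascular wells at an adjusted p of 0.05. The 2 genes that set the classes are measured in the same wells as the members, so a member that varies with *Rgs5* from well to well also differs between the classes.

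The matrix level of *Notch3*, as a mean RPKM, was 6.74% and 5.89% of the vascular level. For *Rgs5*, on which the classes rest, it was 0.346% and 0.168%, and for *Higd1b*, a vascular marker the class rule did not use, 0.286% and 0.222%. The 14 vascular markers spread widely on this scale, up to 38.0% and 32.8% for *Pdgfrb*, so *Notch3* lay inside their range.

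The other receptors did not follow this pattern. *Notch1*, the receptor with the widest use across tissues, had a median RPKM of 5.27 and 9.16 in vascular wells (range 0 to 91.4 and 0 to 132) against 5.23 and 3.90 in matrix wells (0 to 43.8 and 0 to 39.4). It was read in 69.5% and 78.3% of vascular wells and in 71.4% and 65.9% of matrix wells, and the intervals overlapped in both tumors. In the summed reads it had 119 and 133 CPM against 93.4 and 88.6, a log2 fold change of 0.47 (SE 0.16) that missed the threshold (adjusted p = 0.13, edgeR, n = 2 tumors) and was -0.17 when scaled to the ERCC totals.

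*Notch2* had the opposite sign. Its median RPKM was 1.94 and 2.49 in vascular wells (range 0 to 71.7 and 0 to 54.8) and 4.66 and 6.81 in matrix wells (0 to 30.4 and 0 to 58.6). A read was found in 67.6% (61.5 to 73.2) and 69.6% (63.3 to 75.3) of vascular wells against 83.3% (73.6 to 90.6) and 89.0% (80.2 to 94.9) of matrix wells, and these intervals were apart in both tumors, also after thinning. The summed reads gave 42.9 and 54.0 CPM in vascular against 75.1 and 117 CPM in matrix libraries, a log2 fold change of -0.99 (SE 0.28) with an adjusted p of 0.076 in edgeR. With the tumor as a block, which the shared animal of the 2 classes allows, the log2 fold change was -0.96 (SE 0.19) and the adjusted p 0.037, so *Notch2* was called lower in vascular wells with the block and not without it.

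*Notch4*, known from endothelium, had reads in 14 of 262 and 23 of 240 vascular wells, 5.34% (2.95 to 8.80) and 9.58% (6.17 to 14.0), and in 2 of 84 and 2 of 82 matrix wells. It was under the mean of 1 RPKM and was left out of the main test. Without that filter its log2 fold change was 1.60 (SE 0.85, adjusted p = 0.30, edgeR, n = 2 tumors). Where it was read in vascular wells its median RPKM was 6.39 and 8.68, and the highest wells had 41.9 and 97.1. None of the 502 vascular wells had a read of *Pecam1* or *Cdh5*, the defining genes of endothelial cells, while *Esam* and *Emcn*, also on the endothelial list, were read in 92.4% and 89.2% and in 36.3% and 52.9% of them. Over the 12 genes of that list, vascular wells with *Notch4* had on average 1.50 and 1.65 read, and those without it 1.50 and 1.60. At least 3 of these genes at 10 RPKM were found in 0 of 14 and 3 of 23 wells with *Notch4* and in 6.05% and 5.99% of those without it.

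**Figure D1:**
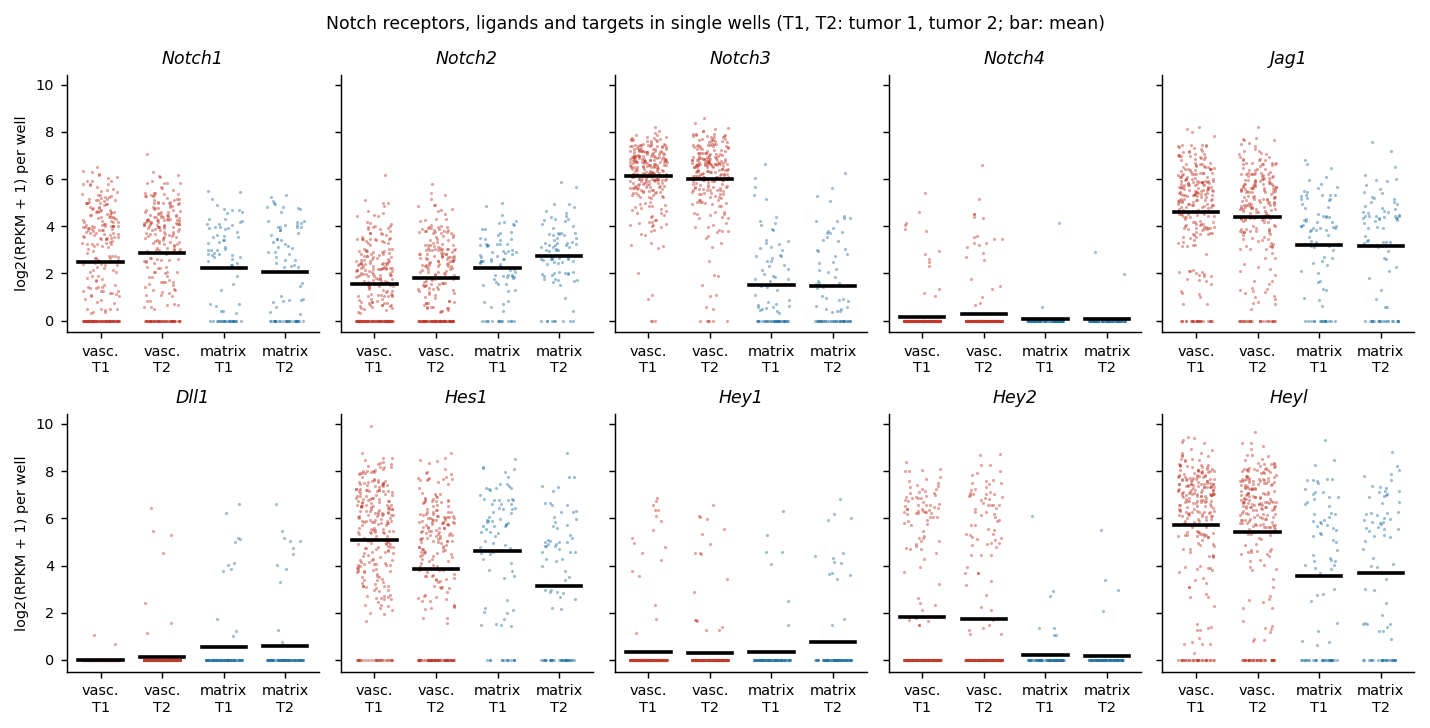
log2(RPKM + 1) of each member in every vascular and matrix well (points, 1 panel per gene), split by tumor on the horizontal axis, with the mean of the wells as a bar. *Notch3* has its means at 6.13 and 6.00 in vascular and at 1.50 and 1.46 in matrix wells, and *Hey2* and *Dll1* have most wells at 0 and a separate cloud of wells with reads.

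Seen as a makeup, the receptors of a vascular well were mostly *Notch3*, which held 84.0% and 82.0% of the summed mean RPKM of the 4 receptors in the tumors, against 30.2% and 24.5% in matrix wells. *Notch3* was the receptor with the highest RPKM in 92.7% and 90.8% of vascular wells. In matrix wells no receptor led so widely, with *Notch2* first in 40.5% and 45.1% of them, *Notch1* in 38.1% and 31.7%, and *Notch3* in 16.7% and 18.3%. RPKM is per transcript length, so these shares compare genes on 1 scale.

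Ordered by mean RPKM over the tumors in vascular wells, the members were *Heyl* (120.4), *Notch3* (92.9), *Hes1* (65.2), *Jag1* (45.4), *Hey2* (27.9), *Notch1* (13.4), *Notch2* (4.68), *Hey1* (2.58), *Notch4* (0.951) and *Dll1* (0.415). Only the last 2 neighbours in that order had overlapping tumor values. In matrix wells the order was *Heyl* (56.2), *Hes1* (51.6), *Jag1* (19.7), *Notch1* (7.97), *Notch2* (7.54), *Notch3* (5.86), *Dll1* (3.98), *Hey1* (3.83), *Hey2* (0.889) and *Notch4* (0.158). There *Heyl* and *Hes1*, *Notch1* and *Notch2*, *Notch2* and *Notch3*, and *Dll1* and *Hey1* overlapped between the tumors.

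**Figure D2:**
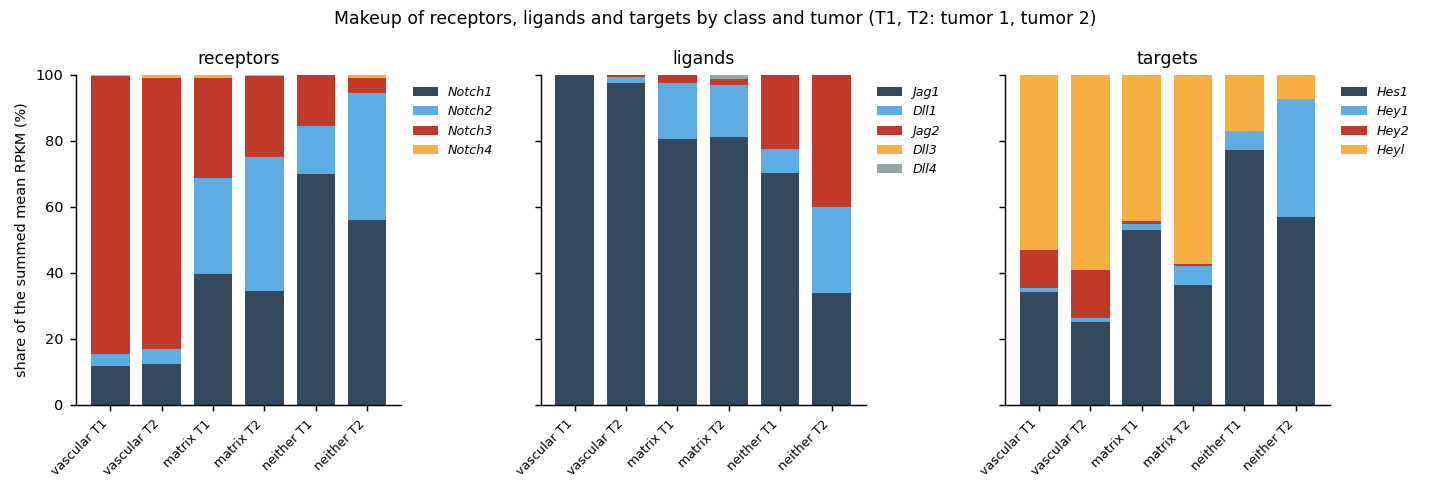
Share of the summed mean RPKM (vertical axis, percent) that each receptor, ligand or target took in the vascular, matrix and unclassed (neither) wells of each tumor. *Notch3* fills 84.0% and 82.0% of the receptor bars of the vascular wells, and *Jag1* most of every ligand bar except that of the unclassed wells of tumor 2.

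Both ligands were read, *Jag1* in most wells of either class and *Dll1* in few. *Jag1* had a median RPKM of 34.5 and 28.8 in vascular wells (range 0 to 292 and 0 to 295) and of 13.3 and 14.3 in matrix wells (0 to 111 and 0 to 186). It was read in 90.1% and 89.6% of vascular and 81.0% and 75.6% of matrix wells. In the summed reads *Jag1* had 268 and 231 CPM in the vascular libraries against 125 and 136 CPM in the matrix libraries, and it was called higher in vascular wells with a log2 fold change of 0.94 (SE 0.16, adjusted p = 0.019, edgeR, n = 2 tumors). Scaled to the ERCC totals, the log2 fold change was 0.29 and the call was lost (adjusted p = 0.21).

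*Dll1*, a Delta-type ligand, was read in 2 of 262 and 7 of 240 vascular wells, 0.763% (0.0926 to 2.73) and 2.92% (1.18 to 5.92), and in 12 of 84 and 12 of 82 matrix wells, 14.3% (7.61 to 23.6) and 14.6% (7.80 to 24.2). The intervals were apart in both tumors and stayed so after thinning. Few wells carried most reads, since 1 well held 46.9% of the 211 *Dll1* reads of the vascular wells of tumor 2, whereas those of tumor 1 had 2 reads in all. In matrix libraries 372 and 234 reads were counted. The fitted log2 fold change was -2.99 with an SE of 1.66, and it was not called (adjusted p = 0.31, edgeR, n = 2 tumors). It ranged from -8.98 without tumor 2 to -1.76 without tumor 1, and with 2 reads in a library it depends on the prior count of the fit.

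Among the targets, *Hey2* had the largest fold change between the classes in the summed reads. In mean log2(RPKM + 1) per well *Heyl* differed more, by 2.15 and 1.74 against 1.60 and 1.57 for *Hey2*. *Hey2* is a basic helix-loop-helix repressor known from arteries and heart. It was read in 30.9% (25.4 to 36.9) and 31.3% (25.4 to 37.5) of vascular wells and in 8.33% (3.42 to 16.4) and 4.88% (1.34 to 12.02) of matrix wells. In the vascular wells that had it, the median was 78.0 and 65.7 RPKM, up to 335 and 421, so that its values split into wells at 0 and wells at a level near that of *Notch3*. The 7 and 4 matrix wells with reads had medians of 1.59 and 8.12 RPKM, and a single well held 91.4% of the 70 reads in tumor 1 and 70.7% of the 41 reads in tumor 2.

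In the summed reads *Hey2* had 77.6 and 63.1 CPM in the vascular against 3.47 and 2.33 CPM in the matrix libraries, a log2 fold change of 4.60 (SE 0.34, adjusted p = 0.0013, edgeR, n = 2 tumors). It was called in each of 13 alternative fits at an adjusted p of 0.05, while the value above misses 0.001. The size moved, to 7.08 when *Rgs5* or *Dcn* had to reach 1000 RPKM, which leaves fewer matrix wells, and to 3.95 when scaled to the ERCC totals, under which *Notch3* was at 3.21.

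*Heyl*, a Hey family member of mural and muscle cells, was read in 88.9% (84.5 to 92.5) and 85.4% (80.3 to 89.6) of vascular wells and 66.7% (55.5 to 76.6) and 70.7% (59.7 to 80.3) of matrix wells. Its median RPKM was 101 and 85.7 in vascular wells (range 0 to 690 and 0 to 813) and 16.4 and 17.4 in matrix wells (0 to 644 and 0 to 450). With 623 and 552 CPM against 320 and 314 CPM, *Heyl* was called higher in vascular wells by a log2 fold change of 0.89 (SE 0.15, adjusted p = 0.017, edgeR, n = 2 tumors). Scaled to the ERCC totals, the log2 fold change was 0.25 and the call was lost (adjusted p = 0.24), as for *Jag1*.

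*Hes1*, the Hes family repressor, and *Hey1* were not called. *Hes1* had median RPKM of 47.4 and 23.2 in vascular wells (range 0 to 976 and 0 to 435) and of 48.01 and 9.98 in matrix wells (0 to 362 and 0 to 439). It differed more between the tumors than between the classes, being read in 89.7% and 84.5% of the vascular and matrix wells of tumor 1 and in 72.5% and 62.2% of those of tumor 2. The log2 fold change was 0.20 (SE 0.37, adjusted p = 0.78, edgeR, n = 2 tumors), and -0.46 when scaled to the ERCC totals. *Hey1* was read in 6.87% and 7.50% of vascular and 8.33% and 18.3% of matrix wells, and its log2 fold change was -0.36 (SE 0.61, adjusted p = 0.76). Without tumor 2 the *Hey1* value was 0.53, and without tumor 1 it was -0.90, so the sign depended on the tumor.

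Of the 9 members tested, 4 were called higher and 0 lower in vascular wells, beside the 6.45% and 9.53% of all genes given above. The median log2 fold change of the members was 0.47, and that of all 11715 genes was 0.03.

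**Figure D3:**
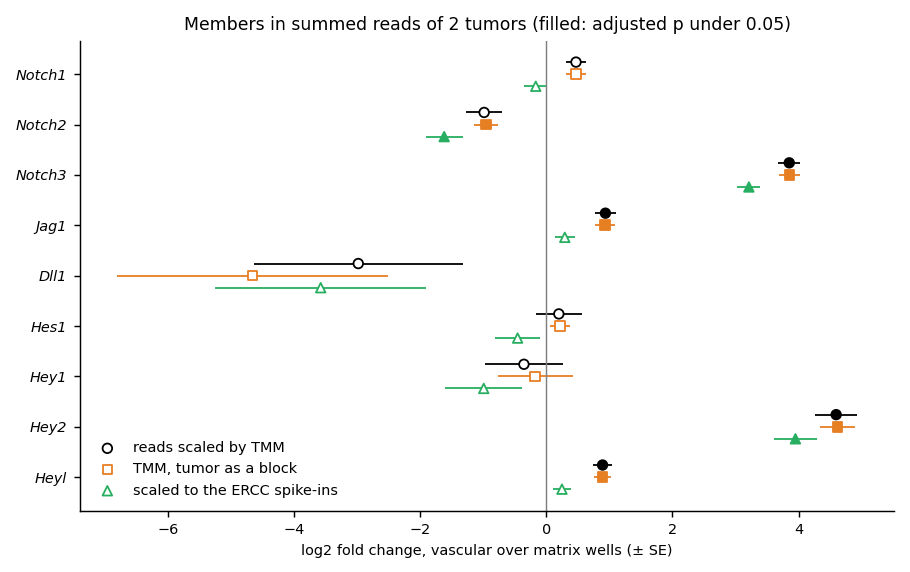
Log2 fold change of the 9 tested members in the summed reads of vascular over matrix wells (horizontal axis, ± SE, n = 2 tumors), scaled by TMM, with the tumor as a block, and scaled to the ERCC spike-ins, with filled marks for an adjusted p under 0.05. *Notch3* (3.85) and *Hey2* (4.60) are filled in all 3 fits, while *Jag1* and *Heyl* are open with the spike-ins and *Notch2* is filled with the block and with the spike-ins.

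The promoters of *Notch3* and *Hey2*, the members with the largest called differences, are shown because the core of the sequence bound by RBPJ can be looked for in them. RefSeq promoters, with 250 bases before and 50 after the start of a gene, were at hand for 7 of the 10 members, all but *Hes1*, *Hey1* and *Heyl*. The motif searched was TGGGAA on either strand, which reads TTCCCA on the other strand and overlaps no other motif searched. It was found in 25.6% of 32851 promoters of that length and, among the members, in the promoter of *Hey2*. The first 260 bases of both promoters are given in the direction of the gene (GRCm38.p6, minus strand), *Hey2* at chr10:30842774-30843033 and *Notch3* at chr17:32166881-32167140, with matches to the motif in capitals.
Hey2: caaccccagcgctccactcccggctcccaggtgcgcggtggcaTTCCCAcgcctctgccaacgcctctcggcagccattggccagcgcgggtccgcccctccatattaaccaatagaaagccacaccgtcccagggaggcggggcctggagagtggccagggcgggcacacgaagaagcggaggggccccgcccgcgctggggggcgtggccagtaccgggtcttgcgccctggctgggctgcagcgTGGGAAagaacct
Notch3: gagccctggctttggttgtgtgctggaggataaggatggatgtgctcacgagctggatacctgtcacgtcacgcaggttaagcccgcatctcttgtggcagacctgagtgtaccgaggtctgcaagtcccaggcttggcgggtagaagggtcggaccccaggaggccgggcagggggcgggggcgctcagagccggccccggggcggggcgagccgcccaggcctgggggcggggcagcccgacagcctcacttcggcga
In *Hey2* the letters lie at -207 to -202 on the opposite strand and at -3 to 3 on the strand of the gene, counted from the start with no position 0. In *Notch3* no match lies in the window, which says nothing of sites elsewhere. A match of 6 letters is a description and not a site.

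In GRCm38 coordinates *Notch3* lies on chromosome 17 from 32120820 to 32166896, *Hey2* on chromosome 10 from 30832359 to 30842783, *Heyl* on chromosome 4 from 123233556 to 123249870 and *Jag1* on chromosome 2 from 137081451 to 137116520. *Notch1*, *Notch2*, *Notch3*, *Hey1* and *Hey2* overlap other annotated genes, mostly long non-coding RNAs, and Smart-seq2 does not mark the strand, so reads of such neighbours cannot be told apart from theirs.

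Beyond the members, 56 other genes of the pathway were followed by counts. Of these, 45 were tested, 7 were called higher and 1 was called lower in vascular wells, and their median log2 fold change was -0.07, against 0.03 over all genes and the 6.45% and 9.53% of all genes called higher and lower. None of the 8 genes of the nuclear complex, which includes *Rbpj* and the Mastermind genes, none of the 7 repressors and none of the 4 tested fringe and glycosylation genes passed the threshold in edgeR. Of 8 tested sheddase and gamma-secretase genes, *Adam17*, a metalloprotease that can cut Notch, was lower, with 71.7 and 82.2 CPM in vascular against 161 and 151 CPM in matrix libraries (log2 fold change -1.02, SE 0.17, adjusted p = 0.016). Among 11 tested genes of endocytosis and turnover, *Dtx3*, a Deltex-type ubiquitin ligase, was higher at 252 and 248 CPM against 107 and 73.1 CPM (log2 fold change 1.47, SE 0.23, adjusted p = 0.012).

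Of the other targets and partners, 5 of 6 tested genes were higher in vascular wells. This list was made with smooth muscle genes on it, which also mark vascular cells, so its count holds markers of the class. *Nrarp*, a target that feeds back on the Notch complex, had 6531 and 3728 reads in vascular against 14 and 2 reads in matrix libraries (adjusted p = 0.0023). *Nrip2* had 117 and 45.3 CPM against 2.97 and 5.10 CPM (log2 fold change 4.33, SE 0.60, adjusted p = 0.0085). *Pdgfrb*, the PDGF receptor of pericytes, had a log2 fold change of 1.28 (SE 0.16, adjusted p = 0.0059), *Acta2*, smooth muscle actin, one of 1.61 (SE 0.26, adjusted p = 0.014), and *Myh11*, smooth muscle myosin, had 17610 and 11348 reads against 6 and 50 (adjusted p = 0.0057). Of the ligand list only *Dlk1*, a Delta-like protein without the part that activates receptors, reached a mean of 1 RPKM over the wells. It was higher in vascular wells, with 6215 and 6861 reads against 3 and 9 (adjusted p = 0.00070, edgeR). Of the 727 wells kept, 502 were vascular, so the mean rests mostly on that class. Genes with few matrix reads, as *Dlk1*, *Nrarp* and *Myh11* had, can therefore pass the filter through the vascular wells alone. *Jag2*, *Dll3* and *Dll4* had a mean under 1 RPKM over the wells kept and were not tested, although *Jag2* had a mean of 5.82 and 2.56 RPKM in the wells of neither class.

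**Figure D4:**
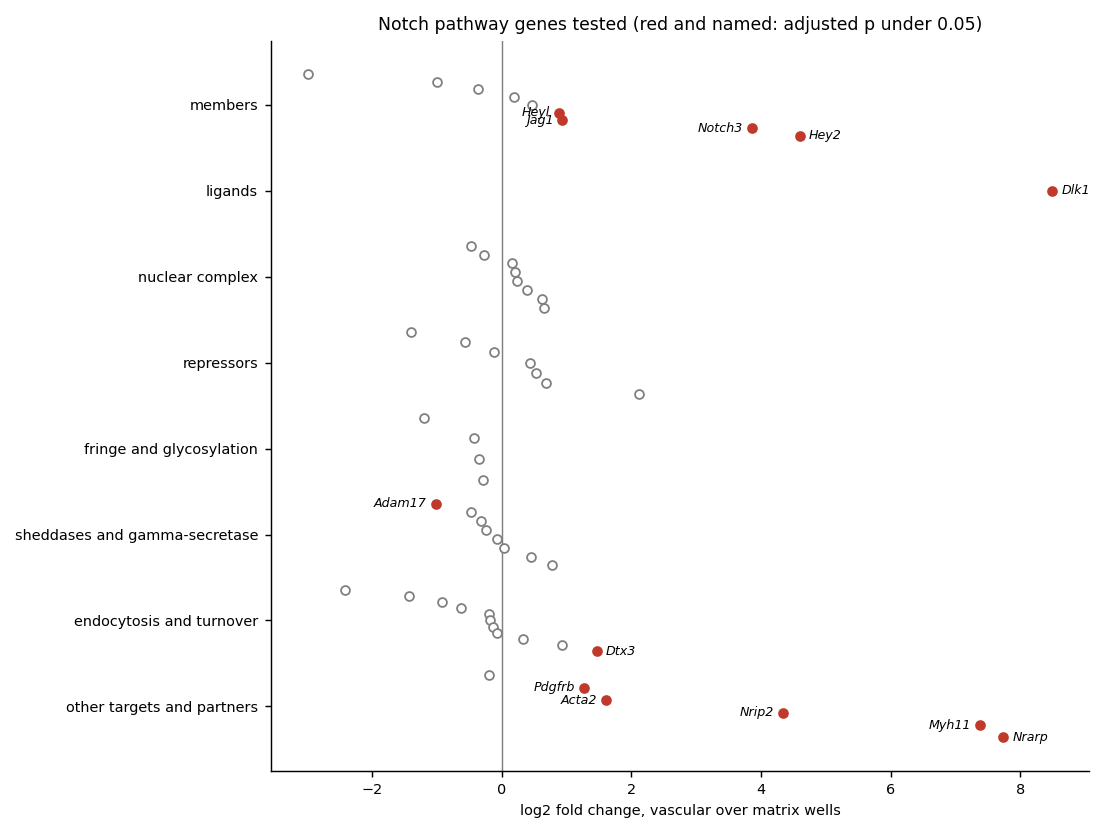
Log2 fold change in the summed reads of vascular over matrix wells (horizontal axis) for the 9 members and the 45 other pathway genes tested, 1 point per gene, by role. Red named points passed an adjusted p of 0.05, among them 4 members and 5 of the 6 genes of the bottom list, while the nuclear complex, the repressors and the fringe genes have no red point.

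Across wells of 1 class, Pearson's r of log2(RPKM + 1) is given for description, since the wells of a tumor share a plate and differ in depth. Of 45 pairs of members in vascular wells (262 and 240 wells), 41 had an r within 0.2 of 0 in both tumors and 2 were over 0.2 in both. These were *Notch1* with *Heyl* (r = 0.28 and 0.29, Spearman's rho 0.31 and 0.28) and *Notch3* with *Jag1* (r = 0.23 and 0.25, rho 0.22 and 0.29). *Notch3* with *Heyl* had r = -0.03 in tumor 1 and 0.33 in tumor 2. In matrix wells (84 and 82 wells) 27 of 45 pairs had an r within 0.2 of 0 in both tumors and 7 were over 0.2 in both, among them *Notch3* with *Heyl* (r = 0.38 and 0.37, rho 0.33 and 0.39), *Notch1* with *Notch3* (r = 0.31 and 0.31, rho 0.31 and 0.32) and *Notch1* with *Heyl* (r = 0.26 and 0.37, rho 0.25 and 0.38).

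*Hey2*, read in a part of the vascular wells, allowed a split of them. Vascular wells with a *Hey2* read had a mean *Notch3* log2(RPKM + 1) of 6.44 and 6.41 (81 and 75 wells) against 5.99 and 5.81 without it (181 and 165 wells). Their mean *Rgs5* was also higher, at 12.6 and 12.4 against 12.1 and 11.8, and its part in the *Notch3* difference was not tested. *Heyl* stood at 5.78 and 6.22 in the wells with *Hey2* against 5.67 and 5.08 in those without.

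The genes whose values were most like a member's, by the smaller of the r of the tumors over all genes, differed by member, and all wells together also carry the difference between the classes. For *Notch3* these were *Rgs5* (0.85), *Higd1b* (0.79) and *Abcc9* (0.79) over 373 and 354 wells, all 3 of them vascular markers, and in vascular wells alone *Rgs5* (0.47), *Itga7* (0.39) and *Ccnd2* (0.35). *Heyl* was most like *Pdgfrb*, with 0.53 over all wells and 0.34 in vascular wells, followed by *Cygb* (0.50) and *Sept4* (0.46). *Jag1* in vascular wells was nearest *Rgs5* (0.28), *Ajuba* (0.27) and *Gucy1a3* (0.27). *Hes1* was nearest *Zfp36* (0.32 in vascular wells), *Ier3* (0.25) and *Junb* (0.25), genes of the immediate early response. *Notch1* in vascular wells was nearest *Heyl* (0.28), *Ttyh2* (0.27) and *Col5a3* (0.25), and *Notch2* had no gene above 0.17 there.

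Reads of *Notch3*, *Jag1*, *Hes1* and *Heyl* were found together in 71.8% (65.9 to 77.1) and 59.2% (52.7 to 65.4) of vascular wells, against 35.7% (25.6 to 46.9) and 30.5% (20.8 to 41.6) of matrix wells. At 50000 reads per well these shares came to 60.8% and 49.6% against 21.5% and 20.5%. The intervals of the classes, which cover counting error only, were apart in both tumors, before and after thinning. By the mean of the tumors these genes are the members most often read in vascular wells. *Notch3*, *Jag1* and *Heyl* were also called higher there, so a higher joint share follows from the single shares. Whether the genes occur together beyond their single shares was not tested.

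Another comparison asked whether the members differ between cycling and other vascular wells. A well was called cycling when at least 5 of 10 mitotic markers had 10 RPKM or more, which gave 21 and 19 of the vascular wells. Summed reads of these were compared with those of the other 241 and 221. Of 11715 genes 1.41% were called higher and 0.0683% lower, and none of the 9 tested members was called in edgeR, with 0 at an unadjusted p under 0.05 and 0 in DESeq2. *Notch3* had 534 and 742 CPM in cycling against 824 and 834 CPM in other vascular wells (log2 fold change -0.38, SE 0.21, adjusted p = 0.48). *Jag1* had 161 and 231 CPM against 308 and 252 CPM (log2 fold change -0.51, SE 0.25, adjusted p = 0.43), and *Hey2* 57.9 and 47.3 CPM against 87.7 and 70.8 CPM (log2 fold change -0.59, SE 0.28, adjusted p = 0.43). *Notch1* had 131 and 237 CPM against 129 and 135 CPM (log2 fold change 0.48, SE 0.32, adjusted p = 0.57). *Heyl* was higher in cycling wells of tumor 1 (811 against 663 CPM) and lower in those of tumor 2 (364 against 625 CPM). In libraries of this size, simulated with a spread common to all genes, 6 of 50 genes changed 4-fold were called. At that spread smaller changes would mostly not pass, while genes of lower spread can, as *Dtx3* did below. Scaled to the ERCC totals, the values of *Notch2*, *Notch3*, *Jag1*, *Hey2* and *Heyl* turned positive, again with no call. Of the other pathway genes *Dtx3* passed, with 121 and 116 CPM in cycling against 292 and 285 CPM in other vascular wells (log2 fold change -1.29, SE 0.18, adjusted p = 0.048).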

How the data were processed

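Single cells of 2 tumors (384 wells each) were assigned to tumors by the plate in their labels. The table of deposited counts gives unnormalized whole reads for each gene. The authors had aligned single-end reads to mm10 with STAR and assigned them to RefSeq genes. The other table holds RPKM, which the authors derived from the same reads with rpkmforgenes. All columns were matched by name and 0 were left unused. Doublets had been gated out by the authors at sorting, and no caller was run. The 6 wells with both class genes high were left out of the comparisons.

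Shares, levels as mean log2(RPKM + 1) and exact binomial 95% intervals were computed per class and tumor. The limit for a share of 0 is 3 wells of the total. Wells were thinned to 50000 reads to compare shares, leaving out shallower wells. For tests, counts were summed per class and tumor, and genes with a mean of at least 1 RPKM were compared with edgeR 4.0.16 (TMM, glmQLFit, glmQLFTest, adjusted p of 0.05, R 4.3.3) without a covariate. Summed libraries held 19298754 to 55005383 reads for vascular and matrix wells and 4792445 to 49176326 for cycling and other vascular wells. Deviations of the libraries of 1 tumor correlated by 0.13 (vascular and matrix) and 0.11 (cycling and other vascular). Both libraries of a tumor share an animal, but the main fit left this pairing out. The tumor as a block, which takes the pairing into account, was an alternative. The others were DESeq2 1.42.0, its size factors, ERCC totals, no filter on genes, deeper wells, equal totals per well, wells without other cell types' markers, other class rules, an adjusted p of 0.001, a pseudocount of 0.1 and 5 reads for detection. On simulated data for vascular against matrix wells (11715 genes) the test called 6, 35, 49 and 50 of 50 genes changed 2-, 4-, 8- and 16-fold, and for cycling against other vascular wells 1, 6, 21 and 47 of 50.

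All members were named, with the 3 genes most like each member read in 50% or more of the vascular or matrix wells of both tumors, and pathway genes past the threshold, at most 10 by p. The members and lists were chosen with earlier results of these data known.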

Additional observations from a re-analysis of the deposited data

Results flagged for a closer look

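The wells with neither *Rgs5* nor *Dcn* high, 22 in tumor 1 and 31 in tumor 2, enter no comparison of the classes. In their summed reads, 4 members stood above both classes in both tumors, in CPM without further scaling. The share of all genes that did so was not computed, so the count does not set the members apart from other genes. *Hey1* reached 43.9 and 107 in tumors 1 and 2, against 7.58 and 8.04 in vascular and 4.29 and 12.3 in matrix wells. It was read in 3 of 22 and 10 of 31 of these wells, and 1 well held 56.5% of the 168 *Hey1* reads of tumor 1 and 1 well 40.0% of the 528 of tumor 2. All 168 reads of tumor 1 and 527 of the 528 reads of tumor 2 came from the 9 and 17 wells with at least 3 of the 7 developmental markers at 10 RPKM or more.

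*Hes1* reached 272 and 125, against 141 and 88.7 in vascular and 105 and 59.6 in matrix wells. *Notch1* reached 193 and 189, against 130 and 147 and against 83.4 and 80.9. *Notch2* reached 72.4 and 152, against 46.8 and 59.7 and against 67.1 and 107. In these sums 1 well held 31.2% and 28.2% of the *Hes1* reads, 24.2% and 29.5% of the *Notch2* reads and 15.7% and 24.8% of the *Notch1* reads. Per well the order differed. *Hes1* was read in 54.5% and 61.3% of these wells, with a mean log2(RPKM + 1) of 3.77 and 3.38, against 89.7% and 72.5% and means of 5.08 and 3.84 in vascular wells. The mean RPKM of *Notch2* in tumor 1 was 4.53, against 5.94 in matrix wells. That of *Notch1* was 22.1 against 12.7 in vascular wells of tumor 1, and 13.7 against 14.1 in tumor 2. *Notch1* was read in 64.5% of the wells of neither class in tumor 2, against 78.3% of the vascular wells. In 13 and 14 of the wells of neither class, fewer than 3 developmental markers reached 10 RPKM. There *Hes1* was at 112 and 35.0 CPM and *Notch2* at 39.7 and 50.0, below the vascular wells of the same tumor. *Notch1* was at 166 and 199.96 CPM there, above the vascular wells. In tumor 2, though, only 4 of those 14 wells had a *Notch1* read and 1 well held 82.9% of the 280 reads. *Epcam*, an epithelial gene, had a mean RPKM of 107 and 71.6 in all 22 and 31 wells, where it was read in 22.7% and 12.9%, against 0.459 and 11.7 in vascular and 1.13 and 4.35 in matrix wells, and its part in these levels was not tested. By contrast *Hey2* had 1 read in the wells of neither class of tumor 1 and 0 in those of tumor 2. There 0 of 31 wells allows a share of up to 11.2% by the exact 95% interval. The limit of 3 wells, an approximation, is 9.68%. None of these differences was tested.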

How the results depend on the processing

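Of 9 tested members, *Notch3* and *Hey2* were called in all 13 alternative fits at an adjusted p of 0.05 and *Jag1* and *Heyl* in 12 of 13, the exception being the ERCC totals, while *Notch1*, *Dll1*, *Hes1* and *Hey1* were called in none. *Notch2* was called lower in 3 of 13, with the replicate block (adjusted p = 0.037), DESeq2 (0.010) and the ERCC totals (0.013), with adjusted p from 0.010 to 0.10 in all. For vascular against matrix wells, 1872 genes were called in edgeR (756 higher, 1116 lower), 2941 in DESeq2, 175 at an adjusted p of 0.001 and 3730 with the ERCC totals, which move the median log2 fold change of all genes from 0.03 to -0.61 and the share of higher calls from 40.4% to 13.9%. At an adjusted p of 0.001, 1 of the 4 called members, *Notch3*, was left. For cycling against other vascular wells, 173 genes were called, 280 with the replicate block, 882 in DESeq2, 370 without the filter, 1400 with the ERCC totals (median 0.71 against -0.04) and 0 at an adjusted p of 0.001, where 1727 had an unadjusted p under 0.05, and 0 members in any of them. The block changed no other call of a member.

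Log2 fold changes of vascular over matrix wells turned in sign for *Notch1* (-0.17) and *Hes1* (-0.46) with the ERCC totals, for *Hes1* against all other wells (-0.029), and for *Hey1* with classes at 1000 RPKM (0.075). For cycling against other vascular wells they turned with the ERCC totals for *Notch2* (0.37), *Notch3* (0.37), *Jag1* (0.24), *Hey2* (0.17) and *Heyl* (0.62), for *Hes1* without wells that carry markers of other cell types (-0.078) and for *Hey1* with the replicate block (-0.00023). Apart from the scaling itself, the cause was not tested.

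With 1 tumor left out no spread is left, so these are values without a test and give no counts. Without 1 tumor, *Hey1* ranged from -0.90 to 0.53 between vascular and matrix wells, and between cycling and other vascular wells *Dll1* from -9.87 to 2.84, *Hes1* from -0.29 to 0.45, *Hey1* from -1.86 to 1.73 and *Heyl* from -0.80 to 0.29. Counting 5 reads as detected, thinning, a pseudocount of 0.1 and other class rules moved 42 of 100 shares and 33 of 80 levels by over the spread of the tumors. The lower pseudocount lowers every level by definition, and asking for 5 reads can only lower a share. Part of these moves is therefore a change of scale. *Notch4*, *Dll1* and *Hey1* were read in few wells, so their shares have wide intervals.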
